A study of Mus musculus with 6 samples.

Results

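Immediate-early and heat-shock genes were followed in single cells of the synovium, the lining of the joint, of mouse knees. The set holds 39 genes, named in a list, of the 31017 genes in the count matrices. All 39 had a row in each of the 6 matrices. They form 33 early-response genes and 6 heat-shock genes, and the 2 groups were kept apart.

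The 6 libraries are 6 groups of 1 library, each made from pooled synovium of 10 mice, with 7000 cells loaded and no gate for cell type beyond viability. The healthy groups are wild type and Notch3-/- knockout mice. The arthritic groups all received K/BxN serum, which transfers an antibody-driven arthritis to the recipient. They are wild type, Notch3-/- knockout, mice given an isotype control antibody and mice given an anti-Notch3 monoclonal antibody. The strain, age and sex of the mice, the antibody dose and the time of sampling are not given in the sources used here, nor is the genotype of the antibody-treated mice. The labels' title asks how Notch signalling bears on the identity of synovial fibroblasts. The 3 main comparisons set a Notch3-targeted library against its untargeted partner and are called the healthy genotype pair, the arthritic genotype pair and the antibody pair. Since every group is a single library, no ratio could be checked against replicates, and the intervals cover counting error only.

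Cells were assigned by marker genes to a fibroblast gate (11403 cells, 1074 to 3663 per library), a myeloid gate (4413 cells, 474 to 979) and an endothelial gate (1070 cells, 120 to 227). The summed fibroblast markers (10 genes, Col1a1 and Pdgfra among them) were at 45757 to 63652 CPM (counts per 1000000 UMIs of the gate) in the fibroblast gate. They were at 188 to 957 CPM in the myeloid gate, where they were highest in the healthy knockout and isotype libraries. Clustering without the members put 98.6% of the fibroblast gate, 99.3% of the myeloid gate and 99.9% of the endothelial gate in clusters of the same class. The libraries held 11636998 to 24535233 UMIs in 2109 to 5096 barcodes. The healthy wild type library stood apart by haemoglobin and other erythroid transcripts, which made up 830 CPM of its fibroblast gate and 18790 CPM of its endothelial gate. In the other libraries they were at 0.1 to 24.5 CPM in the fibroblast gate and at 0 to 43.9 CPM in the endothelial gate. Notch3 itself checked the labels. It had 7 UMIs in the healthy knockout and 3 in the arthritic knockout library, 0.285 and 0.252 CPM, and 69 to 123 UMIs in the wild type libraries. The isotype library had 77 (3.66 CPM) and the anti-Notch3 library 25 (2.15 CPM). Of 18313 distinct barcode sequences, 177 occurred in more than 1 library.

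Early-response genes are transcribed within minutes of a stimulus from factors that already sit in the cell, such as serum response factor and CREB, so they need no new protein. Their products are transcription factors of the AP-1, EGR, KLF and NR4A families, together with RNA-binding proteins, phosphatases and inhibitors that shut the response off again. Heat-shock genes are driven by heat-shock factor 1 when proteins misfold, and they encode chaperones. In joints, fibroblasts switch on early-response genes when they meet cytokines or mechanical load. Both groups can also be switched on while a tissue is taken apart into cells, and when the RNA was made was not tested.

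The summed early-response genes were higher in the Notch3-targeted library of every pair in the fibroblast and endothelial gates. In the fibroblast gate they made up 3.31% in healthy wild type, 4.88% in healthy knockout, 2.89% in arthritic wild type, 5.36% in arthritic knockout, 1.85% in isotype and 3.25% in anti-Notch3 cells. In the endothelial gate their share was 3.11% in healthy wild type, 5.02% in healthy knockout, 2.28% in arthritic wild type, 5.04% in arthritic knockout, 1.71% in isotype and 3.3% in anti-Notch3 cells. In the myeloid gate the healthy pair had the other order, with 2.26% in healthy wild type, 2.03% in healthy knockout, 1.69% in arthritic wild type, 1.9% in arthritic knockout, 1.2% in isotype and 1.95% in anti-Notch3 cells. The isotype library had the lowest early-response share in all 3 gates. The myeloid order of the healthy pair rests on the scaling: TMM, which shifts the log2 ratio by 0.26 there, puts the knockout library slightly above.

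Heat-shock genes had another order. Their sum was 0.252% in healthy wild type, 0.267% in healthy knockout, 0.39% in arthritic wild type, 0.446% in arthritic knockout, 0.734% in isotype and 0.473% in anti-Notch3 cells of the fibroblast gate. It was 0.343% in healthy wild type, 0.295% in healthy knockout, 0.551% in arthritic wild type, 0.401% in arthritic knockout, 1.55% in isotype and 0.759% in anti-Notch3 cells of the myeloid gate. In the endothelial gate the values were 0.426% in healthy wild type, 0.531% in healthy knockout, 0.775% in arthritic wild type, 0.782% in arthritic knockout, 1.84% in isotype and 1.23% in anti-Notch3 cells. The isotype library was highest in all 3 gates, followed by the anti-Notch3 library, and the healthy libraries were lowest in all 3. Within the antibody pair the groups therefore went opposite ways, with more early-response and less heat-shock RNA in the anti-Notch3 library.

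**Figure D1:**
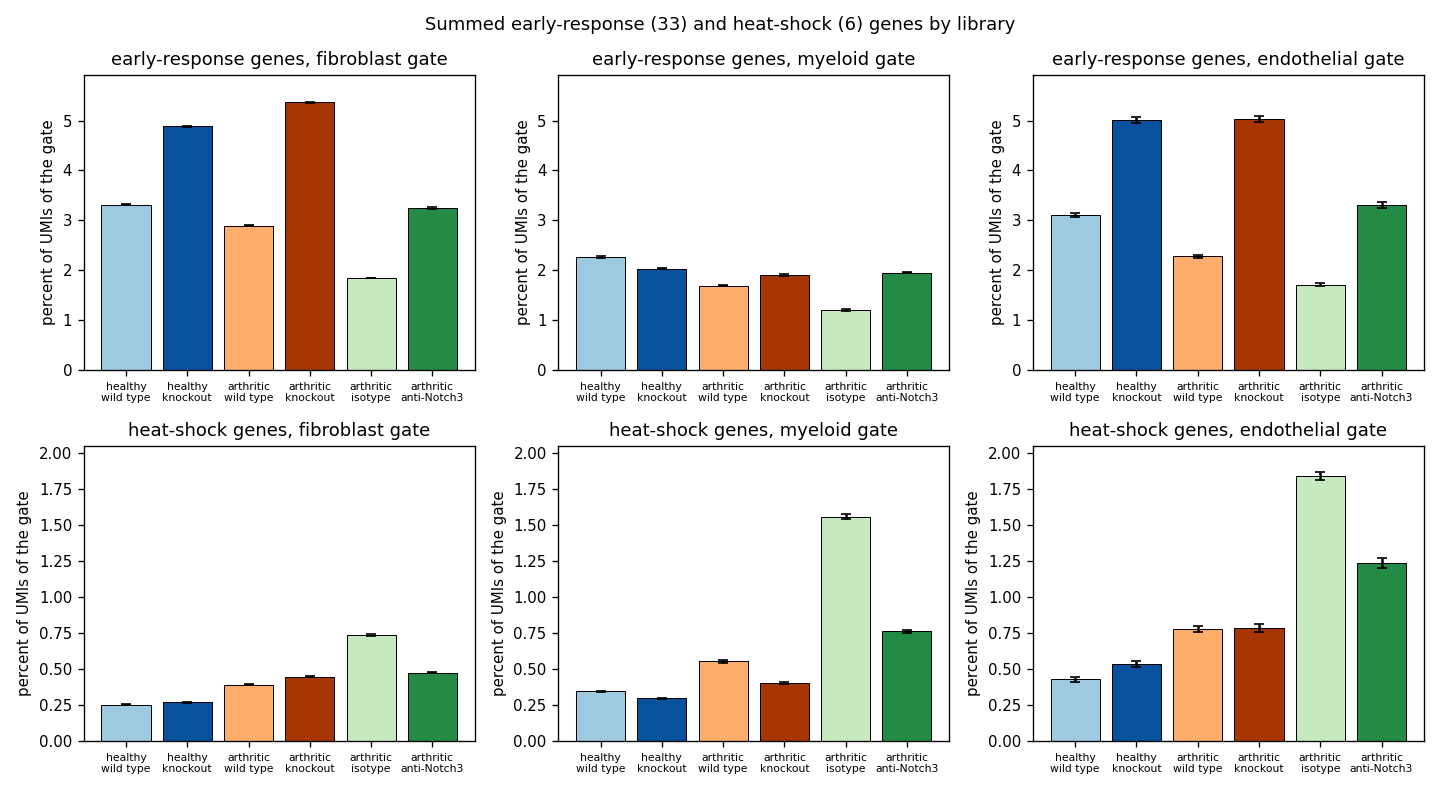
Share of all UMIs of a gate (vertical axis, percent) taken by the 33 early-response genes (upper row) and the 6 heat-shock genes (lower row) in each of the 6 libraries, 1 bar per library, with exact binomial 95% intervals that cover counting error only. The isotype bar is the lowest in the upper row (1.85% in the fibroblast gate) and the highest in the lower row (0.734%) in each gate.

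In the healthy pair the fibroblast difference held over the range of single cells. In the fibroblast gate the median cell gave 4.98% of its UMIs to the early-response genes in healthy knockout against 3.35% in the healthy wild type library. The 10th percentile was 2.58% against 1.19% and the 90th was 8.01% against 6.29%. In the arthritic genotype pair the 10th percentile was 1.95% in knockout against 1.09% in wild type, and the median 5.16% against 2.71%. The antibody pair was closer at the low end, with a 10th percentile of 0.686% in anti-Notch3 against 0.582% in isotype fibroblasts. The medians of that pair were 2.98% and 1.70%. Isotype fibroblasts had a median of 1.70% and a 90th percentile of 3.86%, so that 90% of them lay under the median of the healthy and arthritic knockout libraries. Myeloid cells gave a median of 1.11% in isotype to 2.10% in healthy wild type cells.

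**Figure D2:**
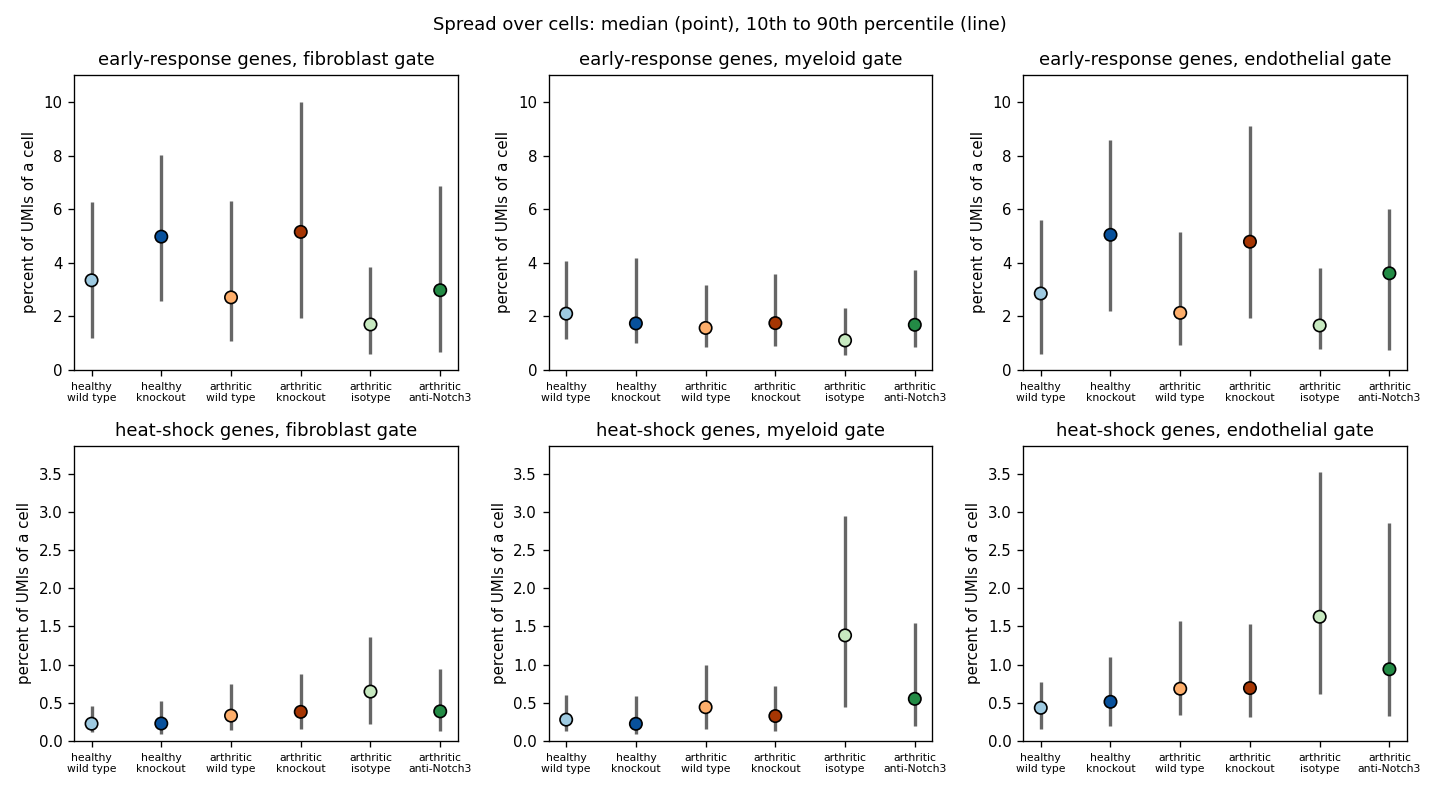
Percent of a cell's UMIs (vertical axis) taken by the early-response genes (upper row) and heat-shock genes (lower row) in each library and gate, where the point is the median cell and the line runs from the 10th to the 90th percentile. In the fibroblast gate the early-response median is 4.98% in healthy knockout and 1.70% in isotype cells.

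Counted gene by gene, 17 of 33 early-response genes were at least 1.5-fold higher and 0 at least 1.5-fold lower in healthy knockout than in healthy wild type fibroblasts, where 11.3% of all genes with as many UMIs were higher and 16.9% lower. The arthritic genotype pair had 19 higher and 1 lower (background 13% and 16.7%), and the antibody pair 19 higher and 0 lower (background 10.1% and 13.9%). Their median log2 ratios were 0.63, 0.70 and 0.68, beside -0.10, -0.06 and -0.08 over all genes. Endothelial cells were alike, with 17, 22 and 21 of 31 genes higher (background 10.2%, 18.9% and 13.9%) and 1, 0 and 0 lower (background 21.1%, 23.9% and 22.5%). Fosl1 and Nr4a3, under 20 UMIs there in at least 1 pair, were not counted in endothelium. In myeloid cells 7 genes were higher and 4 lower in the healthy pair (background 6.16% and 32.2%), and with TMM scaling 12 were higher and 1 lower. The arthritic genotype pair had 4 higher and 6 lower (background 19% and 15.6%), and only the antibody pair had many higher, 17 against 1 lower (background 8.32% and 15.4%).

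**Figure D3:**
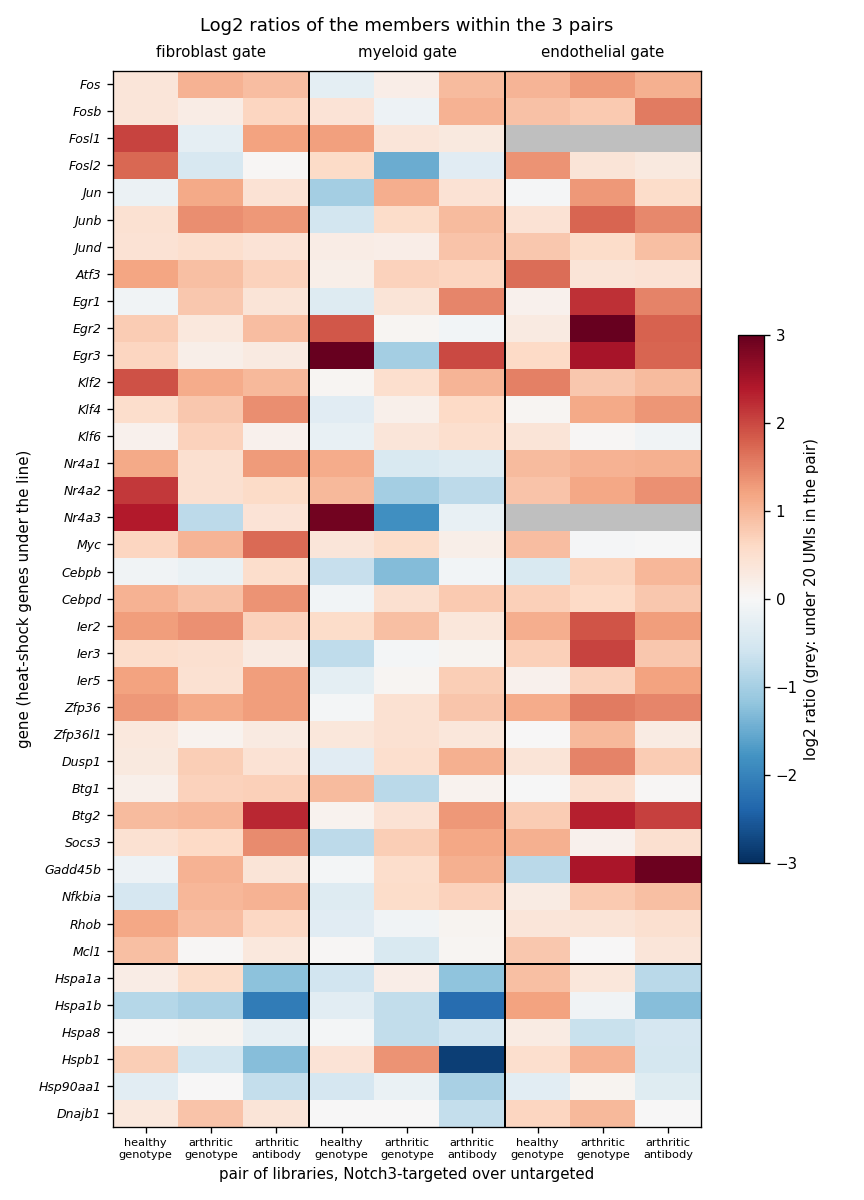
Log2 ratio of each member (rows) in the Notch3-targeted over the untargeted library of the 3 pairs in the 3 gates (columns), red for higher and blue for lower, with colours saturating at 3 in either direction and grey for under 20 UMIs. Early-response rows above the line are mostly red in the fibroblast and endothelial columns, and the heat-shock rows under the line are mostly blue in the antibody columns.

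AP-1 is a dimer of a Fos protein with a Jun protein, or with a relative such as Atf3. Fos lies on chromosome 12, 85473890 to 85477273, plus strand. Gene positions are from GENCODE release M21 on GRCm38, the assembly also called mm10. Their starts can differ from the RefSeq starts used for the upstream windows below. Fos was at 7378 CPM in healthy wild type, 9480.2 in healthy knockout, 5348 in arthritic wild type, 10980.3 in arthritic knockout, 3803 in isotype and 7188 in anti-Notch3 cells in the fibroblast gate. Its level was higher in the targeted library of all 3 pairs, though by under 1.5-fold in the healthy one (1.28-fold). In endothelium the pairs stood at 4837 against 9846 CPM in the healthy genotype pair, 3598 against 8691 in the arthritic genotype pair and 2722 against 5687 in the antibody pair, at least 1.5-fold higher in each. Myeloid Fos went the other way in the healthy pair: 3114 CPM in healthy wild type, 2536 in healthy knockout, 1783 in arthritic wild type, 2049 in arthritic knockout, 1599.7 in isotype and 3068 in anti-Notch3 cells.

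Fosb, a close relative of Fos, was also higher in each targeted library in both gates, with endothelial log2 ratios of 0.87, 0.77 and 1.55 in the healthy genotype, arthritic genotype and antibody pairs. Its fibroblast levels were 1577 against 2018 CPM in the healthy genotype pair, 1507 against 1763 in the arthritic genotype pair and 608 against 955 in the antibody pair. Junb, a Jun family member that often restrains Jun, was at 3021 against 4170.0 CPM in the healthy genotype pair, 2011 against 5291 in the arthritic genotype pair and 1074 against 2639 in the antibody pair in the fibroblast gate. The arthritic pairs thus differed by 2.63-fold (95% counting interval 2.58 to 2.68) and 2.46-fold (95% counting interval 2.41 to 2.51). In endothelium Junb stood at 3420.4 against 4638 CPM in the healthy genotype pair, 1609 against 5405 in the arthritic genotype pair and 1122 against 3061 in the antibody pair, and in myeloid cells at 2009.9 against 1378 CPM in the healthy genotype pair, 1085 against 1596 in the arthritic genotype pair and 666 against 1293 in the antibody pair.

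Jun itself differed by under 1.5-fold between the healthy libraries in fibroblasts and endothelium. Its fibroblast levels were 3026 against 2684 CPM in the healthy genotype pair, 1982 against 4356 in the arthritic genotype pair and 2139 against 2871 in the antibody pair, and the endothelial ones 2613 against 2547 CPM in the healthy genotype pair, 1369 against 3367 in the arthritic genotype pair and 1688 against 2471 in the antibody pair. In myeloid cells Jun was 2.03-fold lower in healthy knockout and 2.12-fold higher in arthritic knockout than in its wild type. Jund, which is made more steadily than Jun, stayed under 1.5-fold in each pair in fibroblasts, with fibroblast log2 ratios of 0.43, 0.50 and 0.42. Jund levels in the myeloid gate were 1098, 1271, 1309, 1506, 687 and 1253 CPM in the order of the libraries above.

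Atf3, a stress-induced partner of Jun, was at least 1.5-fold higher in the fibroblasts of all 3 targeted libraries: 1287 against 2945 CPM in the healthy genotype pair, 1129 against 2127 in the arthritic genotype pair and 913 against 1485 in the antibody pair. Fosl1 and Fosl2, the slower Fos relatives, did not follow one direction. Fosl2 was 3.32-fold higher in healthy knockout fibroblasts and 1.39-fold lower in arthritic knockout ones, on levels of 50.8 to 169 CPM. Fosl1 ranged over 4.5 to 26.6 CPM in fibroblasts.

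EGR factors are zinc-finger proteins that carry growth factor signals to the genome. Endothelial Egr1 was at 2252 against 2464 CPM in the healthy genotype pair, 613 against 2788 in the arthritic genotype pair and 671 against 1896 in the antibody pair. Its ratio was 4.54-fold (95% counting interval 4.08 to 5.07) in the arthritic genotype pair and 2.82-fold (95% counting interval 2.53 to 3.15) in the antibody pair, and 1.09-fold (95% counting interval 1.01 to 1.19) in the healthy one. Fibroblast Egr1 was at 2021, 1876, 1545, 2718, 1250.1 and 1644 CPM in library order, with the arthritic knockout library highest and the isotype library lowest, and myeloid Egr1 was at 520.0, 401, 233, 303, 194 and 537 CPM.

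Egr2 and Egr3 were likewise higher in each targeted library in endothelium. Endothelial Egr3 was at 87.3 CPM in healthy wild type, 133 in healthy knockout, 21.7 in arthritic wild type, 123 in arthritic knockout, 26 in isotype and 89.5 in anti-Notch3 cells, at least 1.5-fold higher in the targeted library of all 3 pairs. Endothelial Egr2 stood at 83.4 against 101 CPM in the healthy genotype pair, 23 against 207 in the arthritic genotype pair and 39.1 against 134 in the antibody pair. The endothelial gate held 738490 UMIs in all in arthritic wild type and 998412 in isotype cells. Endothelial Egr2 and Egr3 levels in those libraries therefore rest on few UMIs. In the other gates Egr3 reached at most 25.1 CPM, and its myeloid ratio in the healthy pair rested on 13 UMIs in wild type and 95 in knockout cells.

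Krüppel-like factor Klf2, known in endothelium as the factor induced by laminar flow, was at least 1.5-fold higher in each targeted library in fibroblasts and endothelium. In the fibroblast gate it was at 959 CPM in healthy wild type, 3598 in healthy knockout, 1391 in arthritic wild type, 2989 in arthritic knockout, 1011 in isotype and 1972 in anti-Notch3 cells. The targeted library was 3.75-fold (95% counting interval 3.69 to 3.82), 2.15-fold (95% counting interval 2.1 to 2.2) and 1.95-fold (95% counting interval 1.91 to 2) higher in the 3 pairs. Endothelial levels were 1812 against 5141 CPM in the healthy genotype pair, 2246 against 3909 in the arthritic genotype pair and 1274 against 2477 in the antibody pair. Klf2 hardly differed between the healthy libraries in myeloid cells (1.04-fold), and the arthritic pairs there stood at 731 against 1044 CPM and 593 against 1212 CPM.

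Klf4 was at 1951, 2825, 1632, 2879, 543 and 1421 CPM in fibroblasts in library order, lowest in the isotype library. Its endothelial levels were 1991, 2059, 911, 2015, 539 and 1348 CPM, 1.03-fold, 2.21-fold and 2.5-fold higher in the targeted library of the 3 pairs. Klf6 reached 1.5-fold only in fibroblasts of the arthritic genotype pair, among these gates, with log2 ratios of 0.13, 0.70 and 0.13 in fibroblasts and 0.40, 0.04 and -0.11 in endothelium.

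NR4A proteins are orphan nuclear receptors whose activity is set by their amount. Nr4a1 was at 392 CPM in healthy wild type, 862 in healthy knockout, 573 in arthritic wild type, 806 in arthritic knockout, 179.9 in isotype and 438 in anti-Notch3 cells in fibroblasts, higher in each targeted library. Its endothelial levels were 297 against 571 CPM in the healthy genotype pair, 278 against 577 in the arthritic genotype pair and 172 against 363 in the antibody pair, and those of Nr4a2 138 against 250.3 CPM in the healthy genotype pair, 108 against 245 in the arthritic genotype pair and 68.1 against 179 in the antibody pair, at least 1.5-fold apart in all 3 pairs for both genes. In myeloid cells the family was higher in the targeted library in the healthy pair and lower in both arthritic pairs. Nr4a1 was 2.16-fold and Nr4a2 1.97-fold higher in healthy knockout cells, while Nr4a2 was 2.04-fold lower in arthritic knockout and 1.72-fold lower in anti-Notch3 cells. Nr4a3 was listed at 11.8 to 71.5 CPM in fibroblasts and 5.3 to 86.3 CPM in myeloid cells, with log2 ratios of 2.89 in the healthy and -1.84 in the arthritic genotype pair in the latter.

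The other transcription factors are Myc and the C/EBP proteins Cebpb and Cebpd. Myc, a growth regulator, was higher in the targeted fibroblasts of every pair: 183 against 284 CPM in the healthy genotype pair, 113 against 229.8 in the arthritic genotype pair and 55.3 against 180.2 in the antibody pair. It stayed within 11 to 22.2 CPM in the myeloid gate, with targeted over untargeted log2 ratios of 0.37, 0.56 and 0.18. Cebpd, which is induced by cytokines, was at 701 CPM in healthy wild type, 1445 in healthy knockout, 563 in arthritic wild type, 1038 in arthritic knockout, 330.4 in isotype and 845 in anti-Notch3 cells in fibroblasts, and 421 against 686 CPM in the healthy genotype pair, 416 against 631 in the arthritic genotype pair and 389 against 677 in the antibody pair in endothelium. Cebpb, a driver of myeloid gene programmes, was at 681 CPM in healthy wild type, 421 in healthy knockout, 1199 in arthritic wild type, 489.9 in arthritic knockout, 477 in isotype and 454 in anti-Notch3 cells in the myeloid gate, where the arthritic wild type library stood 1.76-fold above the healthy wild type one and the arthritic knockout 2.45-fold under the arthritic wild type.

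The 13 feedback and survival genes come next. Zfp36 (chromosome 7, 28376784 to 28380253, minus strand) encodes tristetraprolin, which binds AU-rich elements and speeds the decay of cytokine mRNAs. It was at 1120.5 CPM in healthy wild type, 2752 in healthy knockout, 1089.8 in arthritic wild type, 2381 in arthritic knockout, 514 in isotype and 1225 in anti-Notch3 cells in fibroblasts. The targeted library was 2.46-fold (95% counting interval 2.41 to 2.5), 2.18-fold (95% counting interval 2.13 to 2.24) and 2.38-fold (95% counting interval 2.31 to 2.46) higher. In endothelium the levels were 991 against 2131 CPM in the healthy genotype pair, 645 against 1904 in the arthritic genotype pair and 345 against 956 in the antibody pair, and in myeloid cells 1091 against 1047 CPM in the healthy genotype pair, 606 against 825 in the arthritic genotype pair and 374 against 667 in the antibody pair, with the healthy libraries 1.04-fold apart.

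Btg2 (chromosome 1, 134075170 to 134079120, minus strand), an antiproliferative gene that recruits deadenylases to mRNA, was likewise at least 1.5-fold higher in each targeted library in both gates. Its fibroblast levels were 1156 CPM in healthy wild type, 2237 in healthy knockout, 936 in arthritic wild type, 1868 in arthritic knockout, 219 in isotype and 1055 in anti-Notch3 cells. The isotype library was 4.28-fold under the arthritic wild type library, although neither was Notch3-targeted, and the antibody pair differed by 4.82-fold (95% counting interval 4.63 to 5.02). Endothelial Btg2 was at 1323 CPM in healthy wild type, 2248 in healthy knockout, 406 in arthritic wild type, 2057 in arthritic knockout, 291 in isotype and 1205 in anti-Notch3 cells, again lowest in the isotype library. Myeloid levels were 578 against 625 CPM in the healthy genotype pair, 352 against 475 in the arthritic genotype pair and 207 against 509 in the antibody pair.

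Ier2, a nuclear early-response protein, was at 663 against 1594 CPM in the healthy genotype pair, 877 against 2264 in the arthritic genotype pair and 526 against 845 in the antibody pair in fibroblasts and 941 against 1992 CPM in the healthy genotype pair, 601 against 2232 in the arthritic genotype pair and 424 against 1012 in the antibody pair in endothelium. In myeloid cells it was at 279, 406, 203, 379, 184 and 234 CPM in library order. Ier3, which restrains cell death, was at least 1.5-fold higher in each targeted library in endothelium (704 against 1159 CPM in the healthy genotype pair, 347 against 1405 in the arthritic genotype pair and 398 against 702 in the antibody pair) and under 1.5-fold apart in fibroblasts, with log2 ratios of 0.54, 0.48 and 0.28. Ier5 was at 218, 504, 326, 449, 76.3 and 182 CPM in fibroblasts, lowest in the isotype library. Rhob, a small GTPase of endosomes, was at least 1.5-fold higher in targeted fibroblasts of all 3 pairs: 199 against 447 CPM in the healthy genotype pair, 219 against 418 in the arthritic genotype pair and 203 against 312 in the antibody pair.

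Dusp1, the phosphatase that switches off p38 and JNK kinases, was at 1562, 1901, 1419, 2348, 1130.4 and 1535 CPM in fibroblasts, 1959, 1550.1, 1268, 1811, 934 and 1965 CPM in myeloid cells and 1350.3, 1762, 769, 2165, 653 and 1104 CPM in endothelium, in library order. Only the arthritic pairs were at least 1.5-fold apart, in all but the fibroblasts of the antibody pair and the myeloid cells of the genotype pair. Nfkbia, the inhibitor of NF-kappaB, was lower in healthy knockout fibroblasts and higher in both arthritic targeted libraries, with 776 against 546 CPM in the healthy genotype pair, 534 against 1072 in the arthritic genotype pair and 365 against 749 in the antibody pair in fibroblasts and 1012, 776, 632, 926, 602 and 976 CPM in myeloid cells. Gadd45b had the widest endothelial ratios of all early-response genes in the antibody pair, on 190.1 against 109 CPM in the healthy genotype pair, 43.3 against 240.4 in the arthritic genotype pair and 31 against 243 in the antibody pair. Its arthritic wild type and isotype levels there rest on few UMIs. Btg1 was at 399, 764, 1373, 785, 677 and 723 CPM in myeloid cells, highest in arthritic wild type.

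The remaining members varied between pairs. Zfp36l1, a relative of Zfp36, had fibroblast log2 ratios of 0.32, 0.11 and 0.28, Mcl1, a survival protein of the Bcl-2 family, 0.90, 0.04 and 0.33, and Socs3, the feedback inhibitor of interleukin 6 signalling, 0.45, 0.59 and 1.42 in the healthy genotype, arthritic genotype and antibody pairs. Their fibroblast levels ranged over 420.0 to 822 CPM, 170.5 to 394 CPM and 275 to 1100.2 CPM.

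The upstream DNA of Zfp36 and Btg2 is shown because these genes separated the pairs in both fibroblasts and endothelium and each holds a motif of a factor named above. The sequences are the 250 bases before the RefSeq start (GRCm38.p6), 5′ to 3′ on the gene's strand, for Zfp36 at chr7:28379229-28379478, minus strand and for Btg2 at chr1:134079156-134079405, minus strand. Capitals mark a serum response element in Zfp36, 58 bases before the start, and a cyclic AMP response element (TGACGTCA) in Btg2, 166 bases before it.
Zfp36: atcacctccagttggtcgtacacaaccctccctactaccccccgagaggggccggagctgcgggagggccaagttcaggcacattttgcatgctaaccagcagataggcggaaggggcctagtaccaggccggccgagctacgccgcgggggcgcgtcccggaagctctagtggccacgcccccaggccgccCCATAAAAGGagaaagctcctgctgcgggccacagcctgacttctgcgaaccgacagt
Btg2: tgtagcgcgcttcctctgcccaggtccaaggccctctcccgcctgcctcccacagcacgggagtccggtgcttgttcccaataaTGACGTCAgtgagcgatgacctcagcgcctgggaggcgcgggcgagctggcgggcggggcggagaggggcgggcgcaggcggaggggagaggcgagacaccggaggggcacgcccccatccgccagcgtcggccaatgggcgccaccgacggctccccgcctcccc
Both strands were searched in the windows of the 31 members that matched the RefSeq table, 27 of them early-response genes. The serum response element was found in Egr2 and Zfp36 and in 1.48% of 32536 distinct windows, and the cyclic AMP response element in Btg2 and Dusp1 and in 1.56%. The AP-1 site TGACTCA was in 0 of the 31 windows and in 4.45% of all. Klf2, Cebpd and Ier2 separated the pairs in both gates too. Klf2 held none of the motifs searched, and Cebpd and Ier2 had no matched window. Sites farther than 250 bases before the start were not searched. A match in these letters is a description of the sequence, not a shown binding site.

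**Figure D4:**
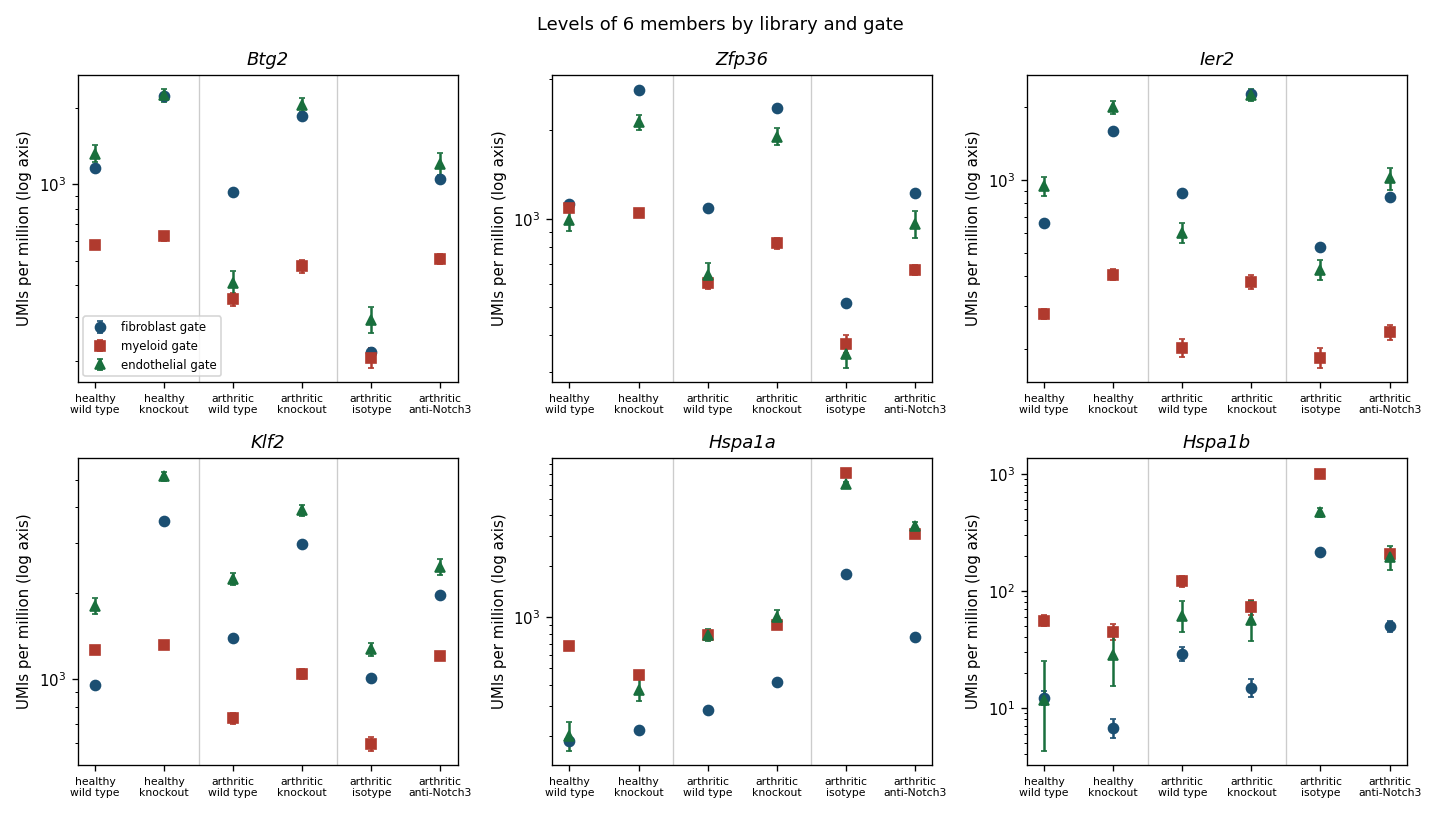
Levels of 4 early-response and 2 heat-shock genes (vertical log axis, CPM) in the 6 libraries, with 1 symbol per gate and exact Poisson 95% intervals that cover counting error only. Btg2 is at 2237 CPM in healthy knockout and 219 CPM in isotype fibroblasts, and Hspa1a is highest in the isotype library in each gate.

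Hspa1a and Hspa1b (chromosome 17, 34969190 to 34972156, minus strand, and chromosome 17, 34956436 to 34959238, minus strand) encode the inducible Hsp70 chaperone as near-identical copies, so that reads can be split or lost between them and their separate values are uncertain. Hspa1a was at 186 CPM in healthy wild type, 216 in healthy knockout, 285 in arthritic wild type, 417 in arthritic knockout, 1812 in isotype and 769 in anti-Notch3 cells in fibroblasts, 678 CPM in healthy wild type, 456 in healthy knockout, 785 in arthritic wild type, 896 in arthritic knockout, 7120.4 in isotype and 3082 in anti-Notch3 cells in the myeloid gate and 199.8 CPM in healthy wild type, 373 in healthy knockout, 791 in arthritic wild type, 1007 in arthritic knockout, 6109.7 in isotype and 3469.5 in anti-Notch3 cells in endothelium. The 2 antibody libraries were above the other 4 in each gate. Isotype fibroblasts stood 6.35-fold (95% counting interval 6.08 to 6.64) above arthritic wild type ones, isotype myeloid cells 9.07-fold (95% counting interval 8.68 to 9.49) and isotype endothelium 7.72-fold (95% counting interval 7.1 to 8.42).

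Hspa1b was also highest in the isotype and second in the anti-Notch3 library. In myeloid cells it was at 55.5 CPM in healthy wild type, 44.4 in healthy knockout, 121 in arthritic wild type, 72.4 in arthritic knockout, 1005 in isotype and 207 in anti-Notch3 cells. Fibroblasts held 12.1 CPM in healthy wild type, 6.66 in healthy knockout, 29.1 in arthritic wild type, 14.8 in arthritic knockout, 215 in isotype and 50 in anti-Notch3 cells, at least 1.5-fold lower in the targeted library of all 3 pairs, as were 1.18% of all genes. Anti-Notch3 cells were 4.3-fold lower than isotype cells in fibroblasts, 4.84-fold in myeloid cells and 2.43-fold in endothelium. In healthy endothelium the direction was the other, on 6 and 14 UMIs.

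Hspb1, the small heat-shock protein Hsp27 in human nomenclature, was at its highest in endothelium, with 1009 CPM in healthy wild type, 1435 in healthy knockout, 1132 in arthritic wild type, 2335 in arthritic knockout, 4253 in isotype and 2972 in anti-Notch3 cells. Isotype cells were highest in all 3 gates. In fibroblasts the antibody pair stood at 1224 against 505 CPM, and in myeloid cells at 477 against 67.6 CPM. The isotype myeloid gate also held 917 CPM of fibroblast markers against 321 CPM in anti-Notch3, and the part of RNA from other cells in that ratio was not tested.

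Hsp90aa1, the inducible cytosolic Hsp90, was at 389, 315, 555, 564, 1269.5 and 774 CPM in fibroblasts, 584, 409, 639, 554, 2341 and 1189 CPM in myeloid cells and 599, 484, 701, 738, 1951 and 1509.7 CPM in endothelium, in library order and again highest in isotype. Hspa8, the constitutive Hsc70, had the smallest ratio of highest to lowest library of the 6 genes in each gate, at 1435, 1466, 1976, 2084, 2225 and 1854 CPM in fibroblasts, 1962, 1876, 3797, 2288, 4173 and 2787 CPM in myeloid cells and 2165, 2553, 4681, 2933, 4741 and 3352 CPM in endothelium. Dnajb1, the Hsp40 partner of Hsp70, was the exception of the group. Its fibroblast levels were 356 CPM in healthy wild type, 439.7 in healthy knockout, 592 in arthritic wild type, 1065 in arthritic knockout, 597 in isotype and 783 in anti-Notch3 cells, highest in arthritic knockout, and it was higher in the targeted library of all 3 pairs in fibroblasts and endothelium.

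Upstream of the start, 3 of the 4 heat-shock members that matched the table held a heat-shock element (GAANNTTC, which reads the same on both strands), against 2 of 27 early-response genes (Fosl2 and Jun) and 6.72% of all windows. They are shown because Hspa1a, Hspa1b and Hspb1 stood widest apart between the isotype and arthritic wild type libraries. The windows of 250 bases lie at chr17:34972157-34972406, minus strand, chr17:34959239-34959488, minus strand and chr5:135887669-135887918, plus strand, and capitals mark the element, 104 bases before the start in both Hsp70 genes and 117 and 97 bases before it in Hspb1.
Hspa1a: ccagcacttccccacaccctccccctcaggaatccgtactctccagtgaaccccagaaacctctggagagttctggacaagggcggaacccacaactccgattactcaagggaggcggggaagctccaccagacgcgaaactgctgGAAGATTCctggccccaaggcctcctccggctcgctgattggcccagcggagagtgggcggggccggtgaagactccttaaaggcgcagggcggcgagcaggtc
Hspa1b: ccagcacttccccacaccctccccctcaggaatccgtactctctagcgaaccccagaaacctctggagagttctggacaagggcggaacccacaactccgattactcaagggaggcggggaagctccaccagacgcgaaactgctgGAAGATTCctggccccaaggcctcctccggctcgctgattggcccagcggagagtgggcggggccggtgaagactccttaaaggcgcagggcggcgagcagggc
Hspb1: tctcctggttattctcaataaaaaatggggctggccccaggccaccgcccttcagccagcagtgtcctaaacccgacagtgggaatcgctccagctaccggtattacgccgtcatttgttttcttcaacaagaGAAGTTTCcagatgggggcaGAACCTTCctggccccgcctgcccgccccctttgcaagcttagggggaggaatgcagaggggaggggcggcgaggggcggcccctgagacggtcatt
The windows of Hspa1a and Hspa1b were identical at 247 of 250 bases (98.8%).

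The members were also compared over the gates of a library. In the antibody pair 10 of 31 early-response genes were at least 1.5-fold higher in all 3 gates (Fos, Fosb, Junb, Klf2, Klf4, Cebpd, Ier5, Zfp36, Btg2 and Nfkbia), beside 0.99% of all genes. Hspa1a and Hspa1b were lower in all 3, beside 1.41%. The arthritic genotype pair had 2 such genes (Jun and Ier2, background 1.43%) and the healthy pair 3 (Egr3, Nr4a1 and Nr4a2, background 0.858%). Neither pair had a member at least 1.5-fold lower in all 3 gates, 0 of 37, beside 1.74% of all genes in the arthritic and 3.22% in the healthy pair. By any amount, 24, 20 and 14 of 31 early-response genes were higher in all 3 gates of the antibody, arthritic genotype and healthy pairs (background 12.3%, 16.4% and 12.8%), and 0, 0 and 3 were lower in all. The 3 were Jun, Cebpb and Gadd45b (background 36.1%). Of the heat-shock genes, all but Dnajb1 were lower in all 3 gates of the antibody pair (background 32.4%).

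Across the pairs within a gate, 8 of 33 early-response genes were at least 1.5-fold higher in the targeted library of all 3 in fibroblasts (Atf3, Klf2, Myc, Cebpd, Ier2, Zfp36, Btg2 and Rhob), beside 1.02% of all genes. In endothelium they were 11 of 31 (Fos, Fosb, Egr3, Klf2, Nr4a1, Nr4a2, Cebpd, Ier2, Ier3, Zfp36 and Btg2), beside 1.22%. In myeloid cells the count was 0 of 33, beside 0.474%. Klf2, Cebpd, Ier2, Zfp36 and Btg2 were on both lists.

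A Notch3 effect shared by the 3 pairs was tested. In each gate edgeR's quasi-likelihood test with pair as a term called 0 of 39 members in fibroblasts, 0 of 39 in myeloid cells and 0 of 37 in endothelium at an adjusted p of 0.05. It called 0%, 0.0391% and 0.0606% of all genes. At an unadjusted p under 0.05 it held 23, 8 and 25 members, beside 7.88%, 6.07% and 8.21% of all genes. No member passed, and the largest fitted shifts (log2, targeted minus untargeted) in fibroblasts were 1.47 ± 0.32 (SE, adjusted p = 0.376) for Btg2, 1.39 ± 0.25 (SE, adjusted p = 0.376) for Klf2 and 1.29 ± 0.17 (SE, adjusted p = 0.244) for Zfp36, each higher in 3 of 3 pairs. In endothelium they were 1.82 ± 0.33 (SE, adjusted p = 0.189) for Btg2 and 1.80 ± 0.48 (SE, adjusted p = 0.351) for Egr2, with 1.48 ± 0.23 (SE, adjusted p = 0.176) for Zfp36. The fit treats knockout and antibody as repeats and leaves 2 residual degrees of freedom. DESeq2 with the same terms called 14 of 39 members in fibroblasts, 0 of 39 in myeloid cells and 8 of 37 in endothelium. Over all genes it called 161 of 12856, 31 of 10234 and 23 of 6598.

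In fibroblasts the DESeq2 calls were Atf3, Btg2, Cebpd, Fos, Ier2, Ier5, Junb, Klf2, Klf4, Myc, Nr4a1, Rhob and Zfp36, all higher in targeted cells, and Hspa1b, lower with a log2 difference of -1.25 (adjusted p = 0.0145). In endothelium they were Btg2, Fos, Fosb, Ier2, Ier3, Junb, Klf2 and Zfp36, all higher. Without the healthy pair, edgeR called 24 of 37 members in endothelium, where 16.4% of all genes passed, 0 of 39 in fibroblasts (1.08%) and 0 of 39 in myeloid cells (0%). That fit has 1 residual degree of freedom, so its error rests mostly on the spread estimated across genes. Its p-values are therefore no measure of how far the 2 pairs agreed on a gene. The 24 were 23 early-response genes, all higher, and Hspa1b at -0.80 ± 0.25 (SE, adjusted p = 0.013). Among the 23 were Gadd45b at 2.80 ± 0.25 (SE, adjusted p = 2.07e-25) and Egr2 at 2.50 ± 0.27 (SE, adjusted p = 5.24e-18). In the left-out healthy pair endothelial Gadd45b went the other way, with a log2 ratio of -0.80.

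Clusters, which hold more alike cells than a gate, were compared next. Within single clusters with at least 30 cells in both libraries, the summed early-response genes were higher in healthy knockout in 9 of 9 fibroblast clusters, by 1.25-fold to 2.51-fold. The antibody pair was higher in 6 of 6, by 1.12-fold to 1.67-fold. In the arthritic genotype pair only 4 of 6 were higher, from 0.916-fold to 1.34-fold, although the whole gate stood at 2.89% against 5.36%. These 6 clusters held 30 to 99 arthritic wild type cells each, beside 1095 in that library's fibroblast gate. They therefore cover only part of the arthritic wild type fibroblasts, and the rest were not compared within clusters. A cluster led by Ccl11, Lpl and Sult1e1 held 380 arthritic knockout and 46 arthritic wild type cells, and its early-response level was 81310 CPM in knockout and 80719 CPM in wild type, 1.01-fold apart. A cluster led by Myoc, Dkk2 and Penk held 436 and 47 cells at 63626 and 62736 CPM. The gate was the sum of clusters that differed in level and in cell number, and the part of this mix in each gene's ratio was not tested.

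The endothelial early-response and the antibody pair's heat-shock differences had the same sign in each such cluster. The 1 endothelial cluster with enough cells in the arthritic genotype pair, led by Selp, Ackr1 and Sele, was at 50484 CPM in knockout and 21243 CPM in wild type. The healthy endothelial cluster was led by haemoglobin genes (Hbb-bs, Hba-a1), and stood at 53281 CPM in knockout and 29619 CPM in wild type cells. The heat-shock genes were at least 1.5-fold lower in anti-Notch3 than in isotype cells in 6 of 6 fibroblast clusters, 3 of 3 myeloid clusters and 1 of 2 endothelial clusters. The lowest ratio was 0.362-fold, in a myeloid cluster led by Cd209a and Ccl17. In myeloid cells the early-response sum was higher in 1 of 3 clusters of the healthy pair, 2 of 3 of the arthritic genotype pair and 3 of 3 of the antibody pair. Myeloid clusters differed in cell number too. One led by Acp5, Apoe and Ms4a7 held 43 arthritic knockout and 536 arthritic wild type cells. Another, led by Lyve1, Vsig4 and Fxyd2, held 258 and 83. The part of this mix in each gene's myeloid ratio was not tested.

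**Figure D5:**
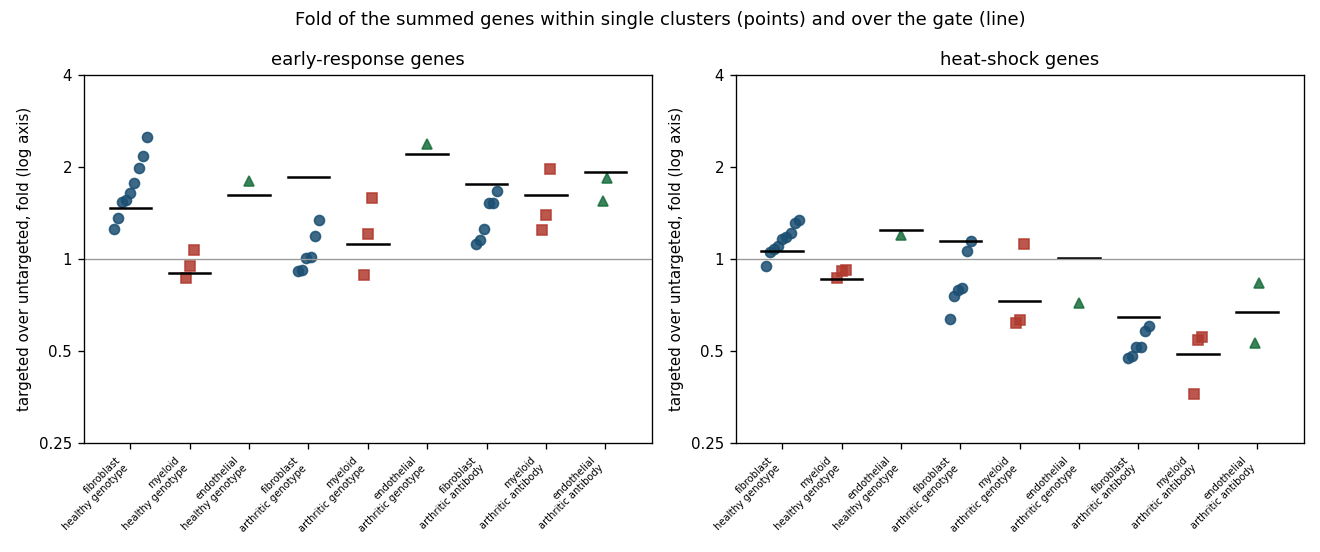
Fold of the summed early-response genes (left) and heat-shock genes (right) in the Notch3-targeted over the untargeted library (vertical log axis), where each point is 1 cluster with at least 30 cells in both libraries and the black line is the whole gate. In the arthritic genotype pair the fibroblast points (0.916-fold to 1.34-fold) lie under the line of the gate, and in the antibody pair all heat-shock points lie under 1.

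Arthritis was read between the 2 wild type libraries. In fibroblasts 4 of 6 heat-shock genes were at least 1.5-fold higher in arthritic wild type and 0 lower (background 15.3% and 19.6%), in myeloid cells 2 and 0 (background 10.5% and 36.5%) and in endothelium 3 and 0 (background 18.8% and 26.5%). Hspa1b was the member of this group higher in all 3. Early-response genes split, with 6 higher and 5 lower in fibroblasts, 9 and 17 in myeloid cells, and 5 and 14 of 31 in endothelium. The myeloid count of 17 lower genes was 8 with TMM scaling, which shifted the median of all genes by 0.254 on the log2 scale. Jun and Junb, 2 of 31, were at least 1.5-fold lower in all 3 gates, beside 4.48% of all genes, and the count was 1 with TMM and 0 with median-of-ratios scaling. Jun was 1.53-fold, 3.26-fold and 1.91-fold lower in fibroblasts, myeloid cells and endothelium. Fosl2 was the 1 early-response gene of 31 at least 1.5-fold higher in all 3, beside 1.86% of all genes, by 2.16-fold, 2.47-fold and 1.6-fold. The Nr4a genes were higher in arthritic myeloid cells, Nr4a1 by 2.29-fold, Nr4a2 by 3.61-fold and Nr4a3 by 15.9-fold. The myeloid gate also changed its mix. A cluster led by Acp5, Apoe and Ms4a7 held 67 healthy and 536 arthritic wild type cells. Another, led by Lyve1, Vsig4 and Fxyd2, held 519 and 83. The part of this mix in the myeloid ratios was not tested. This comparison shares its libraries with the genotype pairs and is no independent value.

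Between the knockout libraries, arthritic over healthy, Hspa1a and Hspa1b were at least 1.5-fold higher in all 3 gates (background 0.593%) and 0 early-response genes were.

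The isotype library differed from the arthritic wild type library, though both were arthritic and not Notch3-targeted. Of the heat-shock genes, 4, 5 and 5 of 6 were at least 1.5-fold higher in isotype fibroblasts, myeloid cells and endothelium (background 12.1%, 16.4% and 14%) and 0 lower. Hspa1a, Hspa1b, Hspb1 and Hsp90aa1 were so in all 3 gates, and all 6 were higher by any amount (background 28.9%). The 4 stand beside 0.895% of all genes. Of the early-response genes, 22, 15 and 9 were at least 1.5-fold lower (background 9.94%, 11.5% and 8.79%), and Fosb, Jund, Klf4, Nr4a2, Cebpb, Ier5 and Zfp36 in all 3 gates, beside 1.49%. The isotype library lost 151 barcodes with over 10% mitochondrial UMIs, the most of all, and its median mitochondrial share was 3.66% where the others had 2.46% to 3.27%. The antibody pair is read against this library, and the part of these differences in its ratios was not tested.

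The gates differed from each other in which members they held, tested over the 6 libraries with library as a block (edgeR, added after the data had been seen). Early-response genes were mostly lower in myeloid cells than in fibroblasts, with 20 of 33 lower and 6 higher (background 34.7% and 30.7%). Myc differed by -3.44 ± 0.25 (SE, adjusted p = 3.4e-09, higher in 0 of 6 libraries), Cebpd by -2.86 ± 0.18 (SE, adjusted p = 4.9e-10, higher in 0 of 6 libraries), Egr1 by -2.39 ± 0.24 (SE, adjusted p = 1.7e-07, higher in 0 of 6 libraries) and Jun by -1.90 ± 0.14 (SE, adjusted p = 6.1e-09, higher in 0 of 6 libraries), on the log2 scale of the fit. The genes higher in myeloid cells were Btg1, Cebpb, Fosl2, Klf6, Mcl1 and Nfkbia. Endothelium had 17 lower and 3 higher than fibroblasts (background 30.1% and 21.3%), the higher ones being Btg1, Egr3 and Fosl2. The fit scales by TMM, and by share of UMIs the gates were closer, as the summed shares above show. Of the genes called lower, Cebpb, Dusp1, Jun, Nr4a1 and Zfp36 were higher by CPM in 0 of 6 libraries, while Egr1 and Klf6 were higher by CPM in 4 of 6. Egr3 stood 2.10 ± 0.40 (SE, adjusted p = 0.00034, higher in 6 of 6 libraries) above fibroblasts.

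Heat-shock genes were spread by cell type as well. Hspa1b was higher in myeloid cells than in fibroblasts by 2.25 ± 0.18 (SE, adjusted p = 1.2e-08, higher in 6 of 6 libraries) and Hspa1a by 1.57 ± 0.22 (SE, adjusted p = 1.1e-05, higher in 6 of 6 libraries). Hspb1 was higher in endothelium than in fibroblasts by 1.92 ± 0.32 (SE, adjusted p = 9.1e-05, higher in 6 of 6 libraries). For Hspb1 the difference of myeloid cells from fibroblasts was -2.75 ± 0.34 (SE, adjusted p = 2.1e-06, higher in 0 of 6 libraries), and for Dnajb1 -1.69 ± 0.21 (SE, adjusted p = 3.2e-06, higher in 0 of 6 libraries). These counts compare single genes between cell types on TMM-scaled sums. The p-values set each difference between cell types against how much that difference varied over the 6 libraries.

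The share of cells with a UMI mostly ranked the libraries as the levels did, with exceptions among libraries with close levels. With each cell thinned to 2000 UMIs, Fos was seen in 92.9% to 99.3% of fibroblasts and 73.5% to 92.2% of myeloid cells (97.3% to 99.8% and 80.6% to 97.2% without thinning). Hspa1a was seen in 41.6% in healthy wild type, 31.1% in healthy knockout, 38.8% in arthritic wild type, 47.5% in arthritic knockout, 94.2% in isotype and 75.8% in anti-Notch3 cells of the myeloid gate, and in 24.9% in healthy wild type, 23.6% in healthy knockout, 30.2% in arthritic wild type, 36.3% in arthritic knockout, 77.3% in isotype and 50.4% in anti-Notch3 cells of the fibroblast gate. Btg2 was seen in 74.2% in healthy wild type, 89.5% in healthy knockout, 66% in arthritic wild type, 83.5% in arthritic knockout, 28.2% in isotype and 65.7% in anti-Notch3 cells of the fibroblast gate. Thinning left out 30 to 96 fibroblasts and 23 to 350 myeloid cells per library, and it left 82 to 172 endothelial cells. As background, Col1a1, a fibroblast gene, was seen in 1.84% to 18.6% of myeloid cells at the same depth, highest in the isotype library. Hspb1 was seen in 2.25% to 26.8% of myeloid cells. Hspb1 lay under Col1a1 in healthy knockout and arthritic wild type cells and above it in the isotype library, at 26.8% against 18.6%. The part of RNA from other cells in the myeloid Hspb1 shares was not tested. The median depth before thinning was 4522 to 8357 UMIs in fibroblasts and 2713 to 6979 in myeloid cells.

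Genes of the same responses outside the set were counted from lists. Of 25 other early-response genes, such as Maff and Ppp1r15a, 10 of 24, 9 of 24 and 11 of 23 with enough UMIs were at least 1.5-fold higher in targeted fibroblasts of the healthy genotype, arthritic genotype and antibody pairs, and 3, 1 and 1 lower. The background was 11.3%, 13% and 10.1% higher and 16.9%, 16.7% and 13.9% lower. Maff, Csrnp1, Ppp1r15a and Phlda1 were higher in all 3, as were 1.02% of all genes. Maff, a small Maf factor, was at 80.9 against 263 CPM in the healthy genotype pair, 119 against 442 in the arthritic genotype pair and 98.3 against 179.5 in the antibody pair, untargeted first. In endothelium Ier5l and Irf1 were higher in all 3 pairs (background 1.22%), Irf1 with 250.3 against 529 CPM in the healthy genotype pair, 167 against 629 in the arthritic genotype pair and 99.2 against 349 in the antibody pair. In myeloid cells 0 genes of that list were higher in all 3 pairs. The counts there were 5 higher and 4 lower in the healthy genotype pair, 4 and 5 in the arthritic genotype pair, then 5 and 2 in the antibody pair, of 24, 23 and 22 genes. The background was 6.16%, 19% and 8.32% higher and 32.2%, 15.6% and 15.4% lower.

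Of 18 chaperones outside the set, 10 were at least 1.5-fold lower in anti-Notch3 fibroblasts, 11 in myeloid cells and 11 in endothelium, and 0, 1 and 1 higher. All genes had 13.9%, 15.4% and 22.5% lower and 10.1%, 8.32% and 13.9% higher. Against arthritic wild type, 13, 14 and 9 were higher in isotype cells (background 12.1%, 16.4% and 14%). Hspa2 went the other way in endothelium, higher in the targeted library of all 3 pairs (44.6 against 84.8 CPM in the healthy genotype pair, 23 against 117 in the arthritic genotype pair and 32.1 against 69.9 in the antibody pair). In the arthritic genotype pair 3, 4 and 9 of 18 were lower in fibroblasts, myeloid cells and endothelium, and 2, 1 and 1 higher. All genes there had 16.7%, 15.6% and 23.9% lower and 13%, 19% and 18.9% higher. In the healthy pair 0 of 18 were lower in each gate, and 1, 0 and 1 higher. The background in that pair was 16.9%, 32.2% and 21.1% lower and 11.3%, 6.16% and 10.2% higher.

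Of 6 glucocorticoid-response genes, 5 were at least 1.5-fold higher and 1 lower in endothelium of either arthritic pair (background 18.9% and 23.9% for genotype, 13.9% and 22.5% for antibody), and 2 higher and 1 lower in the healthy pair (background 10.2% and 21.1%). Per1 and Sgk1 of this list were also among the other early-response genes counted above, so the lists overlap. In the healthy genotype, arthritic genotype and antibody pairs, fibroblasts had 1, 1 and 3 of 6 higher and 0, 0 and 0 lower. The background there was 11.3%, 13% and 10.1% higher and 16.9%, 16.7% and 13.9% lower. Myeloid cells had 0, 2 and 2 higher and 1, 2 and 0 lower, beside a background of 6.16%, 19% and 8.32% higher and 32.2%, 15.6% and 15.4% lower. Endothelial Tsc22d3, the leucine zipper gene that glucocorticoids induce, was at 262 against 442 CPM in the healthy genotype pair, 209.9 against 318 in the arthritic genotype pair and 224 against 386 in the antibody pair. The metallothionein genes Mt1 and Mt2, which bind zinc and copper, were, of the lists counted, the only one with a member past the threshold of the shared test. Mt1 passed in endothelium (edgeR, adjusted p = 0.0312) with 343 against 1994 CPM in the healthy genotype pair, 179 against 1354 in the arthritic genotype pair and 140.2 against 607 in the antibody pair, higher in the targeted library of 3 of 3 pairs. The call was lost with classes from clustering (edgeR, adjusted p = 0.313), without the arthritic genotype pair (0.227) and without the antibody pair (0.9995). In fibroblasts the direction was not shared. There Mt1 was at 5058 against 11199 CPM in the healthy genotype pair, 10178 against 8064 in the arthritic genotype pair and 2980.3 against 4415 in the antibody pair, and Mt2 at 5808 against 9031 CPM in the healthy genotype pair, 7985 against 6396 in the arthritic genotype pair and 2719.9 against 3662 in the antibody pair, both lower in the arthritic knockout. In myeloid cells, where the early-response genes of the set did not separate all pairs, Mt1 was at 1775 against 3472 CPM in the healthy genotype pair, 988 against 2017 in the arthritic genotype pair and 717 against 1313 in the antibody pair and Mt2 at 513 against 1138 CPM in the healthy genotype pair, 195 against 674 in the arthritic genotype pair and 188 against 324 in the antibody pair.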

How the data were processed

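Single-cell RNA of knee synovium was measured in 6 libraries with a 10x 3′ kit. The deposited values are whole UMI counts, not normalized, in 1 matrix of genes by barcodes per library. The submitters' processing notes name Cell Ranger 3.0.2 and mm10, and no source used here states how the barcodes were chosen. Barcodes with at least 200 genes and at most 10% mitochondrial UMIs were kept (18077 of 18491).

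Cells were gated by UMIs of marker genes per 10000 UMIs: 100 for fibroblast, 30 for myeloid and 15 for endothelial cells. Cells that passed more than 1 of the 7 gates (511) were left out. The thresholds were chosen after the data had been seen, and no doublet caller was run. Leiden clustering (scanpy 1.11.5, leidenalg 0.10.2) without the members was the alternative.

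Counts were summed per library and gate and given as CPM (counts per 1000000) with exact Poisson 95% intervals, which cover counting error only. Log2 ratios used a pseudocount of 0.5 UMIs and genes with at least 20 UMIs over both libraries. Background percentages are the share of all such genes past the same threshold. Shares of cells used cells thinned to 2000 UMIs. Summed counts were tested with edgeR 4.0.16 (quasi-likelihood, TMM, filterByExpr, Benjamini-Hochberg adjustment) with pair as a term, and with DESeq2 1.42.0 as the alternative. With 1 library per group, these p-values set the shift shared by the 3 pairs against the disagreement between the pairs. A fit without a pair leaves 1 residual degree of freedom, and its error rests mostly on the spread estimated across genes. The fit was tested on simulated data.

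The members and lists were chosen with earlier results of these data known. Levels in every library are given for members past the threshold in a fit, at least 1.5-fold apart in 1 direction in all 3 pairs of a gate or all 3 gates of a pair, or among the 3 highest of their role in a gate, and the rest by range and counts. Promoter windows were taken from a RefSeq table and gene positions from GENCODE release M21. The list of upstream factors is not reported here.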

Additional observations from a re-analysis of the deposited data

Results flagged for a closer look

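Some members were at least 1.5-fold apart in opposite directions in different pairs of a gate. The values below are log2 ratios of the targeted over the untargeted library, each from 1 library against 1, and the difference between pairs was not tested. Myeloid Jun was at 1.08 in the arthritic genotype pair and -1.02 in the healthy pair. Myeloid Nr4a2 was at 0.98 in the healthy pair, -1.03 in the arthritic genotype pair and -0.79 in the antibody pair. Nr4a3 was at 2.38 in the healthy and -0.78 in the arthritic genotype pair in fibroblasts, and at 2.89 and -1.84 in myeloid cells. Myeloid Btg1 was at 0.94 in the healthy and -0.81 in the arthritic genotype pair. Myeloid Socs3 was at 0.74 in the arthritic genotype pair, 1.17 in the antibody pair and -0.77 in the healthy pair. Endothelial Gadd45b was at 2.45 in the arthritic genotype pair, 2.94 in the antibody pair and -0.80 in the healthy pair.

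Among heat-shock genes, endothelial Hspa1a was at 0.90 in the healthy pair and -0.82 in the antibody pair. Fibroblast Hspb1 was at 0.74 in the healthy pair and -1.28 in the antibody pair, and myeloid Hspb1 at 1.35 in the arthritic genotype pair and -2.82 in the antibody pair.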

How the results depend on the processing

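No paired analysis was possible because the replicate number is 1 in every group and so pairs no samples; the pairs in the fits are the targeted library and its control. Of 734 counts of members or genes under alternatives, 685 stayed within 1.5 times and 49 did not. A count has no direction: the summed early-response genes of the healthy myeloid pair turned with TMM, and the endothelial Mt1 call was lost in 3 alternatives. The depth limits the endothelial gate most (120 to 227 cells per library).

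DESeq2 called 14 members in fibroblasts and 8 in endothelium where edgeR called 0 and 0, and 161, 31 and 23 genes in all in fibroblasts, myeloid cells and endothelium where edgeR called 0, 4 and 4. Without the filter on low counts edgeR called 1, 0 and 15 of 39 members in fibroblasts, myeloid cells and endothelium. Over all genes those calls were 40 of 19566, 145 of 16895 and 249 of 14914. Without the healthy pair edgeR called 24 members in endothelium, and 128, 0 and 1103 genes in all (1.08%, 0% and 16.4% of those tested). Without the arthritic genotype pair all-gene calls were 1 in myeloid cells and 0 in endothelium, and without the antibody pair 20 and 0. With classes from clustering they were 0 and 0. The cause of these changes was not tested.

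For members at least 1.5-fold apart, TMM and median-of-ratios scaling both gave 12 early-response genes higher and 1 lower in myeloid cells of the healthy pair (7 and 4 by all UMIs), with 1 heat-shock gene higher (0), 6 early-response genes higher in all 3 gates (3) with 1 heat-shock gene (0), and 2 heat-shock genes higher in fibroblasts of the arthritic genotype pair (1). Between the wild type libraries, early-response genes lower in myeloid cells were 8 with TMM and 4 with median-of-ratios (17), and those lower in all 3 gates 1 and 0 (2). With median-of-ratios, 3 were lower in fibroblasts (5) and 2 higher in all 3 gates (1). Clustering gave 1 heat-shock gene higher and 1 lower in myeloid cells of the healthy pair (0 and 0), 7 early-response genes higher in myeloid cells of the arthritic genotype pair (4), 5 in all 3 gates (2), and 0 lower in all 3 gates between the wild type libraries (2). A stricter gate gave 7 in myeloid cells (4) and 4 in all 3 gates (2) of the arthritic genotype pair. With no minimum of UMIs, 5 were higher in all 3 gates of the healthy pair (3), 2 in all 3 gates between the wild type libraries (1) and 2 in endothelium of isotype over arthritic wild type (1). Without the mitochondrial filter, 1 was lower in all 3 gates between the wild type libraries (2).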
